A study of Homo sapiens with 4 samples.

Results

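RVC cells are A375 melanoma cells that carry *BRAF* V600E and had been made resistant to vemurafenib, a BRAF inhibitor, together with cobimetinib, a MEK inhibitor. Within this culture, cells with many transcripts of mitotic genes were set against cells with none. Transcript molecules, counted by their unique molecular identifiers (UMIs), of *TOP2A*, *MKI67*, *CENPF*, *UBE2C*, *HMMR*, *TPX2*, *PLK1*, *CENPA*, *ASPM* and *BIRC5* were summed in each cell. Cells with a sum of at least 4 were called mitotic and cells with a sum of 0 non-mitotic. Of 9266 RVC barcodes deposited, 8307 had at least 500 genes and at most 20% mitochondrial UMIs, and of these 3633 were mitotic, 1608 non-mitotic and 3066 lay between. The whole series holds 30716 barcodes. The other cultures were untreated sensitive cells (S), cells resistant to vemurafenib alone (RV) and cells resistant to vemurafenib with trametinib, another MEK inhibitor (RVT). All descend from A375 and so share the *BRAF* mutation. For the 3 resistant cultures drug exposure lasted 10 to 14 days and ended 24 h ahead of capture. Each culture is 1 library (10x Genomics Chromium v2, 10000 cells loaded), so there is no replicate and no difference below carries a test.

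A dividing cell copies its DNA and histones in S phase, makes the cyclin B and CDK1 kinase and its partners in G2, and then builds a spindle, aligns its chromosomes and divides. Many genes of G2 and mitosis are held off in resting cells by the DREAM complex, which contains the MuvB core, and are switched on when B-MYB and FOXM1 join this core. p21, the product of *CDKN1A*, inhibits the cyclin-dependent kinases and so keeps that repression in place. Drugs against BRAF and MEK act upstream, on the ERK signal that drives melanoma cells into the cycle.

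All 5 genes that mark the mitotic cells in the working label are part of the rule and check nothing, so the label was checked with other genes. All 25 members of a list of further genes of mitotic entry, with no filter on their level, summed to 2949 CPM (UMIs per 1000000 UMIs) in mitotic and 1016 CPM in non-mitotic cells, and histone and replication transcripts were higher too. These genes follow the rule genes through the cycle, so the values describe the groups and test nothing. The mitotic group thus held transcripts of S phase and G2 as well as of mitosis, and "mitotic" is used below as the name of the rule's group and not of a phase. Mitotic cells were also deeper, with a median of 5346 UMIs against 3508 in the intermediate and 2845 in the non-mitotic cells. Mitochondrial genes took 3.70% and 3.48% of the UMIs of mitotic and non-mitotic cells, and ribosomal protein genes 37.0% and 36.8%. Of the kept RVC barcodes, 70 were also kept in S, 46 in RV and 124 in RVT, and leaving out every RVC barcode that another library also lists gave a mitotic share of 43.8% in place of 43.7%. Among the 959 RVC barcodes that the filter left out, the rule genes had 1833 CPM, against 966 CPM in the kept cells. All cells of the culture can express them, so the level that comes from free RNA could not be read from a negative cell type.

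Because the rule uses these measured UMIs, the sums of the 10 genes are given only as a description. *CENPF*, a kinetochore protein, supplied 35.0% of the rule UMIs of mitotic cells, and *TOP2A*, the topoisomerase that untangles sister chromatids, 22.2%. *UBE2C*, the ubiquitin-conjugating enzyme of the anaphase-promoting complex, supplied 10.9%, *BIRC5* (survivin) 8.28% and *MKI67* (Ki-67) 7.28%. *PLK1*, a kinase of mitotic entry, gave only 1.78%, and 13.5% of mitotic cells had a UMI of it. The median mitotic cell had UMIs of 4 of the 10 genes, 1223 cells (33.7%) had 3 or fewer, and 32 had 1 gene only. The cells just inside the threshold, with a sum of 4, numbered 776 and had a median of 4304 UMIs, and the cells just outside it, with a sum of 3, numbered 854 and had 3961. *AURKA* was at 72.3 CPM in the former and 54.6 CPM in the latter, *CCNB1* at 140 and 135 CPM, and *CDKN1A* at 93.4 and 115 CPM.

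The mitotic cells made up 43.7% of the kept RVC cells (42.7% to 44.8%, exact 95% interval) and the non-mitotic cells 19.4% (18.5% to 20.2%). Intervals here and below cover counting error only. The same rule called 30.7% of S, 41.4% of RV and 4.98% of RVT cells mitotic, at other depths. After every cell had been thinned at random to 1500 UMIs, which left out 403 RVC cells, 9.87% of RVC cells (9.22% to 10.6%) kept a sum of at least 4, against 5.23% in S, 6.31% in RV and 3.56% in RVT. A sum of 0 was then found in 36.9% of RVC, 70.1% of S, 63.9% of RV and 89.9% of RVT cells. At that depth 53.3% of its cells had a sum of 1 to 3, against 24.7% in S, 29.8% in RV and 6.51% in RVT, and the variance of the sum over its mean was 1.81 in RVC, 3.23 in S, 2.88 in RV and 5.50 in RVT. These sums are the values that chose the groups, a sum of 1 to 3 can also come from free RNA, and the barcodes left out by the filter had more of the rule genes than the kept cells in both RVC and RVT (418 against 262 CPM in RVT). The part of free RNA was not tested, and with 1 library each neither were the differences between cultures.

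**Figure D1:**
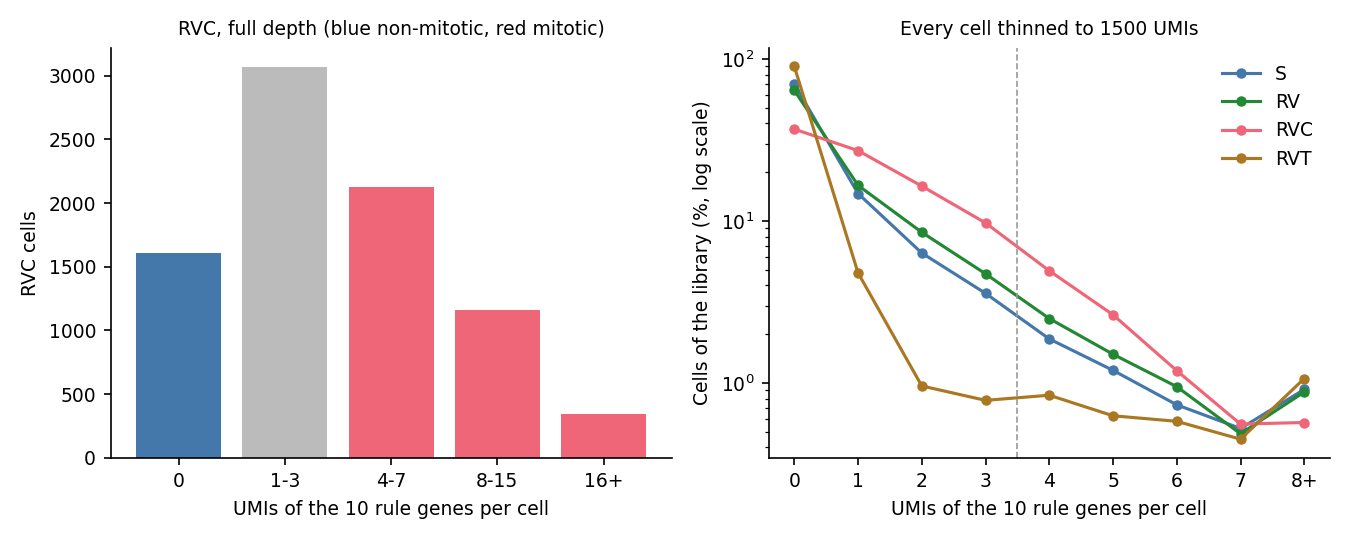
Left, number of RVC cells (bars) by the UMIs of the 10 rule genes per cell at full depth. Right, share of cells of each library (percent, log scale) by the same sum after every cell was thinned to 1500 UMIs, with the dashed line at the threshold of 4. RVC has the fewest cells at 0 (36.9%) and the most at each sum from 1 to 7. At 8 or more it has the fewest (0.57%, against 0.91% in S, 0.88% in RV and 1.06% in RVT).

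Outside the rule, 5989 genes had at least 10 CPM over all kept RVC cells. Among them 448 were at least 1.5-fold higher in mitotic than in non-mitotic cells, which is 7.48% of the genes, and 118 were at least 1.5-fold lower, which is 1.97%. The rule used this contrast, so nothing is read from these shares. The median log2 ratio of all counted genes was 0.08 with an SD of 0.40, and 31 genes were at least 4-fold higher while 13 were at least 2-fold lower. The 10 lists from mitotic entry to histones described below held 130 of the 448 higher genes (29%), 1 of the 118 lower genes (*TUBA1A*) and 207 of all 5989 counted genes (3.46%). Of these 207, 56 were under 10 CPM in non-mitotic cells and 0 in mitotic cells, so list counts and medians partly follow from the minimum. The counting interval lay wholly past 1.5-fold for 167 of the higher and 39 of the lower genes. In cells of 3000 to 6000 UMIs only, where 1789 mitotic cells had a median of 4606 UMIs and 641 non-mitotic cells 3979, 734 genes were higher and 123 lower. These held 401 of the 448 higher and 76 of the 118 lower genes, and none of either set turned its direction.

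**Figure D2:**
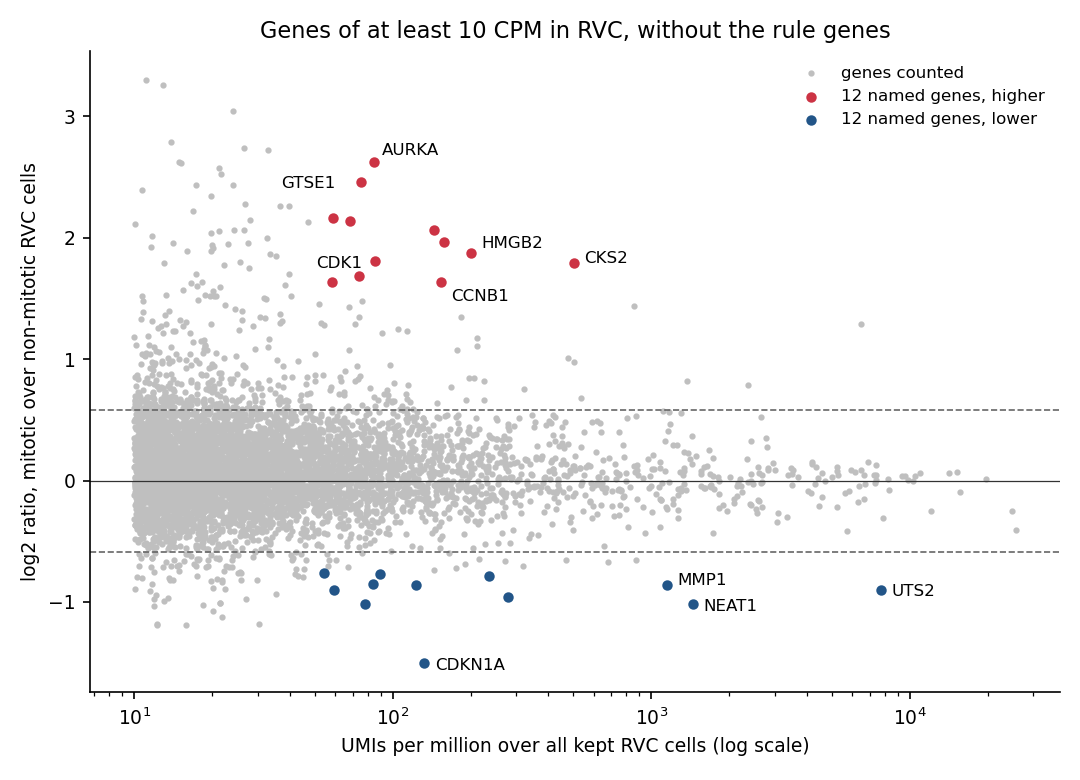
Log2 ratio of mitotic over non-mitotic RVC cells against the level over all kept RVC cells (CPM, log scale), 1 point per gene. Dashed lines mark 1.5-fold; coloured points are the 12 largest and 12 smallest ratios among genes of at least 50 CPM, led by *AURKA* at 2.63 and *CDKN1A* at -1.505.

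Most kinases, cyclins and regulators of mitotic entry were higher in mitotic cells. Of the 20 counted among 25, 18 were higher and none lower, with a median log2 ratio of 1.66 against 0.08 for all genes, and the sum of all 25 differed 2.90-fold (2.82 to 2.99). The minimum of 10 CPM was taken over all kept cells, of whose UMIs mitotic cells hold the larger part, and 7 of the 20 (*NEK2*, *CCNF*, *CDC25C*, *CCNA2*, *MYBL2*, *WEE1* and *CDC25A*) were under it in non-mitotic cells, so they were counted only through the cells where they are high. *AURKA* on chromosome 20 (GRCh38, 56369389 to 56392337), the kinase of centrosome maturation, had 123 CPM in mitotic, 44.7 CPM in intermediate and 19.9 CPM in non-mitotic cells, and was 6.18-fold higher in the first than in the last (5.07 to 7.61). *GTSE1*, a microtubule-binding protein of G2 and S phase, had 103, 50.2 and 18.7 CPM in the same order and was 5.52-fold higher. These genes stepped up from non-mitotic over intermediate to mitotic cells. *CCNB1*, cyclin B1, had 193 CPM in mitotic and 62.1 CPM in non-mitotic cells and was 3.10-fold higher (2.77 to 3.49). *CDK1*, its kinase partner, had 109 and 31.2 CPM and was 3.5-fold higher (2.98 to 4.13). The CDK subunit *CKS2* had 658 and 189 CPM, a 3.47-fold difference. Low levels carried the largest ratios of the list, and widely. *NEK2*, a centrosome kinase, had 15.4 CPM against 1.56 CPM, or 9.86-fold (4.94 to 23.0), and *CCNF*, cyclin F, 18.7 CPM against 1.95 CPM, or 9.56-fold (5.14 to 20.1). *FOXM1*, the transcription factor of G2 genes, was 3.22-fold higher with 90.4 and 28.1 CPM, and its partner *MYBL2* (B-MYB) was 2.95-fold higher with 24.2 and 8.20 CPM. With thinned cells and the rule applied again, *MYBL2* was at 1.18-fold, *FOXM1* at 1.98-fold and *CCNF* at 5.42-fold. In that setting 2913 cells had a sum of 0, of which only 1439 were non-mitotic at full depth. Folds in thinned cells, here and below, thus compare other groups of cells as well as another depth. *PBK*, a mitotic kinase, was 3.90-fold higher, and its fold moved from 5.81 in cells of 3000 to 6000 UMIs to 2.11 in thinned cells. Only *ENSA* and *ARPP19*, the inhibitors of the phosphatase PP2A-B55, stayed under 1.5-fold, at 1.23-fold and 1.22-fold.

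Since these genes stood together, the promoters of all counted genes were read for the letters of elements that genes of G2 and mitosis are known to carry. The CHR (cell cycle genes homology region, TTTGAA or TTCAAA on the other strand) is bound by MuvB, and the CCAAT box (CCAAT or ATTGG) by NF-Y. The search used RefSeq sequence of GRCh38.p14 from 250 bases before to 50 bases after the start, 1 promoter per gene. None of the motifs searched lies within another. Shown are the first 4 of the named higher genes whose window holds both, and for contrast *CDKN1A*, the most lowered named gene, whose window holds neither. *CDKN1A* does not stand for all lower genes. Among 8 named lower genes with a promoter in the table, 2 (25%) held the CHR letters and 1 (12.5%) held both elements. Each is written 5′ to 3′ on the strand of its gene with both elements in capitals. The windows are chr22:46296620-46296919 on the plus strand for *GTSE1*, chr15:90994486-90994785 on the minus strand for *PRC1*, chr15:41332631-41332930 on the plus strand for *NUSAP1*, chr10:60778081-60778380 on the plus strand for *CDK1* and chr6:36678464-36678763 on the plus strand for *CDKN1A*.
GTSE1: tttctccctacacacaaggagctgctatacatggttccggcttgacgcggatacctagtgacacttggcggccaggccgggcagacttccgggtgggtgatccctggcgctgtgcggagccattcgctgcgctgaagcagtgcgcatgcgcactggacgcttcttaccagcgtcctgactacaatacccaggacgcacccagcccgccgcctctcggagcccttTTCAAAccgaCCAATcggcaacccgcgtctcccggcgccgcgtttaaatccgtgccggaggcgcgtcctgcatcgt
PRC1: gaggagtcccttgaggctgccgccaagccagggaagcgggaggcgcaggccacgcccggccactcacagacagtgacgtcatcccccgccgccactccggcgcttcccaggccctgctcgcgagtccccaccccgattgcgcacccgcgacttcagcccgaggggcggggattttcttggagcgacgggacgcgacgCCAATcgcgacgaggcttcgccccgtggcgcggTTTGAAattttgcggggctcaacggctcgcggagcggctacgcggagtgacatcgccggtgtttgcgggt
NUSAP1: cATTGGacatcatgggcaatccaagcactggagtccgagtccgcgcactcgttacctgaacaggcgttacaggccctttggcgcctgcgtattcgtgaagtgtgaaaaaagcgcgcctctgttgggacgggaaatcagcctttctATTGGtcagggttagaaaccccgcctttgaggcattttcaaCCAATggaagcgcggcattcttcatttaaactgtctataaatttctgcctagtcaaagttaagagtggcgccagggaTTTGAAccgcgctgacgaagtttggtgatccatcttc
CDK1: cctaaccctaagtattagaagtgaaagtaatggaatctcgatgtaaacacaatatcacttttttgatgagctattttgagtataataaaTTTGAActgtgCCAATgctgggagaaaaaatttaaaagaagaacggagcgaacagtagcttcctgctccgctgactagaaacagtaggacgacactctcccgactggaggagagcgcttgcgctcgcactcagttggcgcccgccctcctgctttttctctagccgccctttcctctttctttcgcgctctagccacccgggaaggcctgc
CDKN1A: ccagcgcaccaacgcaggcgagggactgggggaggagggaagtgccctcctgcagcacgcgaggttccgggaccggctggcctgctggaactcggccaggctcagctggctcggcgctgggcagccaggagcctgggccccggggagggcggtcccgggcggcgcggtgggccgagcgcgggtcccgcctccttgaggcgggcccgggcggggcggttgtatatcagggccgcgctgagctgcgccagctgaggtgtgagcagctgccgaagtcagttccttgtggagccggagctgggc

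In *GTSE1* the CHR letters began 26 bases before the start and the CCAAT letters 16 bases before it. In *PRC1* they began 20 and 53 bases before it. In *CDK1* they began 161 and 150 bases before the start used here, and in *NUSAP1* the CHR letters began 14 bases into the transcript. Among genes with a promoter in the table, the CHR letters were found for 20 of 29 genes that were at least 4-fold higher (69%) and for 24.7% of the 365 higher genes. Among the 87 lower genes the share was 13.8%, among 4963 counted genes 10.3%, and 15.4% of all 27305 genes in the RefSeq set held them. The CCAAT letters stood in 52.3% of the higher, 37.9% of the lower, 38.1% of the counted and 35.7% of all promoters. Both elements together stood in 18.1%, 2.30%, 4.63% and 6.08% in the same order. Of the rule genes 7 had a promoter in the table, and all 7 held both. The E2F site of S phase genes, also searched (TTTCCCGC or GCGGGAAA), was found for 12 of 45 genes of DNA replication and the G1/S change (26.7%). It was found for 1 of 34 spindle genes, 5.48% of the higher genes, 3.08% of counted genes and 1.66% of all genes. The CHR letters had the opposite spread, with 1 of the 45 replication genes (2.22%) and 21 of the 34 spindle genes (61.8%). The 16 entry genes with a promoter lay between, with 6 (37.5%). The higher and lower sets come from the contrast that the rule made with genes that hold these elements. Higher genes such as *NEK2* and *CCNF* were also counted only through the cells where they are high. The shares therefore test nothing, and they describe letters in a window, not binding.

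Next in order are the genes that hold and release the chromosomes. Of 8 counted genes of the spindle assembly checkpoint, which delays anaphase until every kinetochore is attached, 5 were higher and the median log2 ratio was 1.07. In non-mitotic cells 3 of the 8, *BUB1B* among them, were under 10 CPM and so were counted only through the cells where they are high. *BUB1B* (BUBR1) had 37.1 and 8.40 CPM in mitotic and non-mitotic cells and was 4.42-fold higher (3.25 to 6.16), *MAD2L1* (MAD2) had 67.7 and 37.5 CPM and was 1.81-fold higher. Of 15 counted members of the anaphase-promoting complex list 4 were higher and none lower, with a median log2 ratio of 0.32. They were the activator *CDC20* with 45.8 and 12.7 CPM (3.61-fold, 2.81 to 4.71), the elongating enzyme *UBE2S* (2.32-fold), the inhibitor *FBXO5* (1.80-fold) and the substrate *PTTG1*, securin, with 571 and 291 CPM (1.97-fold). Core subunits such as *CDC16* and *CDC26* were at 0.81-fold and 1.00-fold. Centromere and kinetochore genes were higher in 18 of 23 cases with a median log2 ratio of 1.08. Again 7 of the 23, *CENPE* and *HJURP* among them, were under 10 CPM in non-mitotic cells. *CENPE*, the kinesin that carries chromosomes to the plate, had 33.8 and 4.10 CPM (8.23-fold, 5.34 to 13.4). *HJURP*, the chaperone that loads CENP-A, had 45.2 and 6.83 CPM (6.62-fold), and the shugoshin *SGO2*, which guards centromeric cohesin, had 53.5 and 11.1 CPM (4.81-fold). *DSN1*, a subunit of the MIS12 complex, passed 1.5-fold at full depth (1.59-fold) and was at 1.44-fold in cells of 3000 to 6000 UMIs and 0.88-fold in thinned cells. *FBXO5* was at 1.38-fold in thinned cells, and *HJURP* at 4.18-fold. *BUB1B* was at 7.25-fold in cells of 3000 to 6000 UMIs.

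Of 35 counted motors and spindle proteins 28 were higher, 1 lower and 6 neither. In non-mitotic cells 14 of the 35 were under 10 CPM, so they were counted only through the cells where they are high. The median log2 ratio was 1.48, while the sum of the list, 6715 CPM in mitotic and 4258 CPM in non-mitotic cells, differed 1.58-fold. The kinesins *KIF18B* (6.90-fold), *KIF20A* (6.13-fold) and *KIF14* (5.97-fold) led at levels of 18.9 to 29.1 CPM in mitotic cells. In thinned cells *KIF18B* was at 2.78-fold and *KIF14* at 3.43-fold, and in cells of 3000 to 6000 UMIs *KIF20A* was at 13.8-fold. *NUSAP1*, a spindle microtubule protein, had 189 CPM in mitotic and 45.1 CPM in non-mitotic cells (4.18-fold, 3.66 to 4.80). *PRC1*, which bundles the midzone, had 75.1 and 16.8 CPM (4.47-fold). The tubulins split. *TUBB4B* (2.26-fold) and *TUBA1C* (1.6-fold) were higher, whereas *TUBA1A* was the single lower gene, with 234 and 369 CPM, 1.58-fold lower (1.5 to 1.67). These tubulin genes are close in sequence and reads may be shared between them, and the 1.58-fold of *TUBA1A* became 1.37-fold in cells of 3000 to 6000 UMIs. Of 15 cytokinesis genes 12 were higher with a median log2 ratio of 1.96, while the list summed to 891 and 602 CPM, or 1.48-fold. Here 9 of the 15, *ANLN* and *CEP55* among them, were under 10 CPM in non-mitotic cells. *ANLN* (anillin), of the contractile ring, had 35.1 and 7.22 CPM (4.86-fold) and *CEP55*, of abscission, 35.7 and 9.18 CPM (3.89-fold). *RHOA* and *SEPT7*, which act in every phase, were at 1.00-fold and 0.94-fold.

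Next come genes that pack and join chromosomes. Of 19 genes of the passenger complex, condensin and cohesin 13 were higher, with a median log2 ratio of 0.69 and a summed difference of 1.61-fold. In non-mitotic cells 6 of the 19 were under 10 CPM, so they were counted only through the cells where they are high. The passenger genes *CDCA8* (borealin, 6.70-fold) and *AURKB* (Aurora B, 4.39-fold, with 90.1 and 20.5 CPM) were highest, condensin I subunits such as *NCAPH* (3.85-fold, and 1.93-fold in thinned cells) came next, and the cohesin rings *SMC1A* and *SMC3* stood right at the limit with 1.504-fold and 1.501-fold. Among 19 chromatin and nuclear envelope genes 10 were higher with a median of 0.79 and a summed difference of 1.66-fold, and 3 of the 19 were under 10 CPM in non-mitotic cells. The DNA-bending protein *HMGB2* had 260 and 70.7 CPM (3.68-fold, 3.30 to 4.10), its relative *HMGB1* 1536 and 872 CPM (1.76-fold), and *LMNB1* (lamin B1) 14.6 and 6.83 CPM (2.14-fold). *LMNA*, lamin A, was at 1.03-fold.

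Some genes of S phase were higher too. Of 54 counted genes of DNA replication and the G1/S change 23 were higher, 31 were neither and none was lower, with a median log2 ratio of 0.52. In non-mitotic cells 8 of the 54 were under 10 CPM. *TK1*, thymidine kinase, had 48.7 and 17.0 CPM (2.87-fold, 2.30 to 3.61) and *RRM2*, the small subunit of ribonucleotide reductase, 85.8 and 33.8 CPM (2.54-fold, 2.17 to 2.99). *PCNA*, the sliding clamp, was nearly level, at 45.1 CPM in mitotic and 46.3 CPM in non-mitotic cells. Of 44 replication-dependent histone genes only 4 reached 10 CPM, of which 3 were higher and 1 was under 10 CPM in non-mitotic cells. *HIST1H4C* made up nearly all of their UMIs, with 7261 CPM in mitotic and 2974 CPM in non-mitotic cells (2.44-fold, 2.40 to 2.48). With cells thinned to 1500 UMIs and the groups kept as they were, *HIST1H4C* was at 7246 CPM in mitotic and 3172 CPM in non-mitotic cells. In cells of 3000 to 6000 UMIs the summed histones had a log2 ratio of 1.48, against 1.26 in all cells. Only where the rule was applied again after thinning, which left 780 mitotic cells, was *HIST1H4C* at 1.03-fold and the summed histones at a log2 ratio of 0.04. In that setting 10 genes of the replication list were higher and 1 was lower, with a median of 0.24, and *TK1* was at 1.65-fold and *RRM2* at 2.04-fold.

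**Figure D3:**
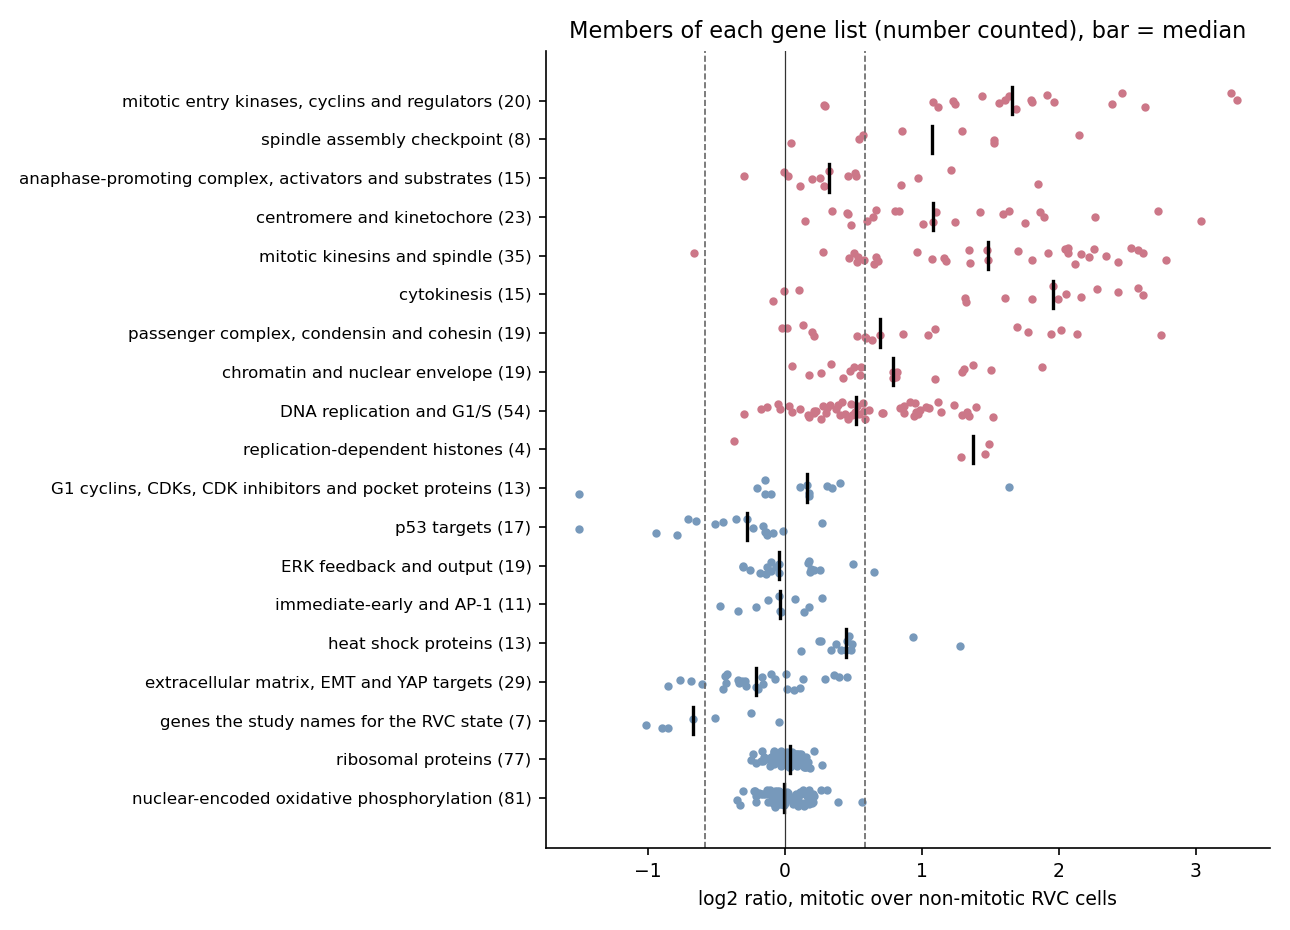
Log2 ratio of mitotic over non-mitotic RVC cells for each counted gene of 19 lists (points, number of genes in brackets), with the median as a bar and 1.5-fold as dashed lines. Lists of cell division (red) reach medians from 0.32 to 1.96, and lists outside it (blue) lie between -0.67 and 0.44.

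Against this, *CDKN1A* was the most lowered gene of all 5989. It had 87.8 CPM in mitotic, 160 CPM in intermediate and 249 CPM in non-mitotic cells and was 2.84-fold lower in the first than in the last (2.64 to 3.05). In cells of 3000 to 6000 UMIs it was 2.85-fold lower and in thinned cells 3.42-fold lower. The share of cells with a UMI of *CDKN1A* moved with depth. At full depth it was 25.4% of the deeper mitotic cells and 23.1% of non-mitotic cells. At 1500 UMIs per cell it was 9.47% of mitotic (8.53% to 10.5%), 12.1% of intermediate and 15.1% of non-mitotic cells (13.3% to 17.0%). Of 17 counted p53 targets, to which *CDKN1A* belongs, 5 were lower, against 1.97% of all counted genes, none was higher and the median log2 ratio was -0.27. Of the 17, 2 were under 10 CPM in mitotic cells, *GDF15* among them, and were counted only through the cells where they are high. The lower targets besides *CDKN1A* were *GDF15*, a stress cytokine (1.92-fold lower, with 9.55 and 18.4 CPM), *ZMAT3*, an RNA-binding protein (1.73-fold lower), *RRM2B*, the p53-induced ribonucleotide reductase (1.64-fold lower), and *RPS27L* with 760 and 1195 CPM (1.57-fold lower). *ZMAT3* and *RRM2B* were 1.31-fold and 1.25-fold lower in cells of 3000 to 6000 UMIs, and these 2 and *RPS27L* were 1.25-fold to 1.39-fold lower in thinned cells. There 4 of the 17 were lower, *CDKN1A*, *GDF15* and, not called at full depth, *BAX* and *PHLDA3*. Among the other G1 regulators *CDKN3*, a phosphatase of the CDKs, was 3.11-fold higher, and the remaining 11 of 13 counted genes, such as the inhibitor *CDKN2C* (0.87-fold), were neither.

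The study lists 12 genes for its cell cluster C6, made up mainly of RVC cells and described as low in cycling transcripts. It places more of the RVC cells in C4, a cluster of high cycling, and lists *NEAT1* for the slow cycling C3 too. Of 7 counted genes of the C6 list, 4 were lower in mitotic cells, against 1.97% of all counted genes. Only 2 of the 7 were lower in cells of 3000 to 6000 UMIs, and 1 in thinned cells. *UTS2*, which encodes the peptide urotensin 2, had 6212 CPM in mitotic, 8767 CPM in intermediate and 11609 CPM in non-mitotic RVC cells, a 1.87-fold difference (1.85 to 1.89), while it had at most 1.68 CPM in either group of S, RV and RVT. The median mitotic cell had 3397 CPM of it and the median non-mitotic cell 5703 CPM, with quartiles of 1031 and 8719 CPM in the former and 1142 and 17486 CPM in the latter, so the cell ranges overlapped widely. A UMI was found in 96.5% of mitotic and 93.6% of non-mitotic cells. *NEAT1*, the nuclear RNA that builds paraspeckles, had 1159 CPM in mitotic and 2349 CPM in non-mitotic cells (2.03-fold lower, 1.98 to 2.07). It was more abundant in RVT, with 4262 CPM in mitotic and 7720 CPM in non-mitotic cells. *MMP1*, a collagenase, had 936 and 1694 CPM (1.81-fold lower) and *NTS*, neurotensin, 569 and 906 CPM (1.59-fold lower). The list was chosen on these same libraries, and its other 3 counted genes were neither higher nor lower. With the rule applied to thinned cells *NEAT1* was 1.79-fold lower, and *UTS2* (1.44-fold), *MMP1* (1.19-fold) and *NTS* (1.17-fold) were under 1.5-fold. In cells of 3000 to 6000 UMIs *UTS2* was 1.52-fold, *MMP1* 1.44-fold and *NTS* 1.14-fold lower.

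Of the 12 named lower genes, 8 more are described here. *CCL2*, a monocyte chemokine, had 59.8 and 121 CPM (2.02-fold lower, 1.83 to 2.23), and *MMP3*, stromelysin, 225 and 436 CPM (1.94-fold lower). *LINC02265*, a long non-coding RNA, had 48.5 and 90.6 CPM (1.87-fold lower). *SAT1*, the enzyme that acetylates polyamines, had 200 and 346 CPM (1.73-fold lower), *SGK1*, a kinase induced by serum and glucocorticoid, 104 and 189 CPM (1.81-fold lower), *S100A4*, a calcium-binding protein, 71.1 and 128 CPM (1.80-fold lower), *FN1*, fibronectin, 75.9 and 129 CPM (1.70-fold lower) and *ARID5B*, a chromatin factor, 45.2 and 76.5 CPM (1.70-fold lower). Of these, *CCL2*, *MMP3*, *LINC02265* and *SAT1* stayed at least 1.5-fold lower in thinned cells, whereas *SGK1*, *S100A4*, *FN1* and *ARID5B* were between 1.15-fold and 1.42-fold lower there. Of 29 counted genes of the matrix, EMT and YAP list 4 were lower (*MMP1*, *FN1*, *SERPINE2* and *COL5A2*), against 1.97% of all counted genes. None was higher, and the median log2 ratio was -0.21. Under 10 CPM were 1 of the 29 in mitotic and 1 in non-mitotic cells. The count changed with depth, to 3 higher and 1 lower in cells of 3000 to 6000 UMIs, and 1 higher and 2 lower in thinned cells. *SERPINE2* and *COL5A2* were 1.32-fold and 1.26-fold lower in cells of 3000 to 6000 UMIs, and *COL5A2* was 1.24-fold higher in thinned cells. *SERPINB3*, *SERPINB4* and *PDGFRA* together had 23.6 CPM in mitotic and 59.8 CPM in non-mitotic cells, a log2 ratio of -1.34 that was -0.65 in thinned cells. A UMI of *SERPINB3* was found in 2.23% of mitotic and 4.60% of non-mitotic cells, and one of *PDGFRA* in 8.07% and 7.59%, at unequal depth.

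The counts of the remaining lists are to be read against the 7.48% of all counted genes that were higher and the 1.97% that were lower, and those with 1 to 3 called members are too small to say anything of the list. None of 77 counted ribosomal protein genes, 81 nuclear genes of oxidative phosphorylation and 12 mitochondrial genes passed 1.5-fold, with median log2 ratios of 0.04, -0.01 and 0.11. Of 19 counted genes of ERK feedback and output, the pathway that both drugs block, only *FOSL1*, an AP-1 subunit, was higher at full depth. It had 133 and 84.5 CPM (1.57-fold, 1.42 to 1.74), and was at 1.47-fold in cells of 3000 to 6000 UMIs and at 0.91-fold in thinned cells. In thinned cells 3 genes of this list, without *FOSL1*, were higher. None of 11 immediate-early genes passed 1.5-fold. The 13 heat shock genes all had ratios above 1, with a median log2 ratio of 0.44. Only the inducible pair *HSPA1A* (66.4 and 27.3 CPM, 2.43-fold, 2.04 to 2.91) and *HSPA1B* (1.91-fold) passed at full depth, and their reads can hardly be told apart. In cells of 3000 to 6000 UMIs 3 heat shock genes passed, and in thinned cells 4. Of 28 SR and hnRNP splicing genes 3 were higher and the median was 0.31, and of 31 proteasome genes 1 (*PSMD3*, 1.59-fold). In the list of the stress and unfolded protein response, 2 of 14 were higher, *PSAT1* of serine synthesis (1.76-fold) and the cystine carrier *SLC7A11* (1.57-fold). Single genes were lower among 16 of glycolysis (*ALDOC*, 1.58-fold), 19 of the lysosome (*GABARAP*, 1.51-fold) and 15 of MHC class I and interferon response (*IFI35*, 1.74-fold). In thinned cells *PSMD3*, *PSAT1*, *ALDOC* and *GABARAP* were within 1.5-fold.

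Levels along the rule sum are given as a description. This sum chose the groups and went with depth, so the levels test nothing about differences among mitotic cells. The 2127 cells with a sum of 4 to 7 had a median of 4680 UMIs, the 1161 with 8 to 15 had 5924 and the 345 with 16 or more had 7922. Entry genes summed to 1016 CPM at a sum of 0, 1969 at 1 to 3, 2540 at 4 to 7, 3172 at 8 to 15 and 3869 at 16 or more, a climb without a break. Histones turned instead. They had 3110 CPM at 0, 6825 at 1 to 3, a peak of 8721 at 4 to 7, and then 7022 and 3845 CPM. The replication list had 1920, 2814, 2866, 2632 and 2607 CPM in the same order, and the p53 targets 2007, 1604, 1347, 1299 and 1294 CPM. Cells of 4 to 7 thus had the most histone transcripts, whereas cells with the highest sums had the most entry transcripts and, but for the cells at 0, the fewest histone transcripts. *UTS2* went down at every step, from 11609 CPM at a sum of 0 to 4692 CPM at 16 or more, and *NEAT1* from 2349 to 819 CPM.

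**Figure D4:**
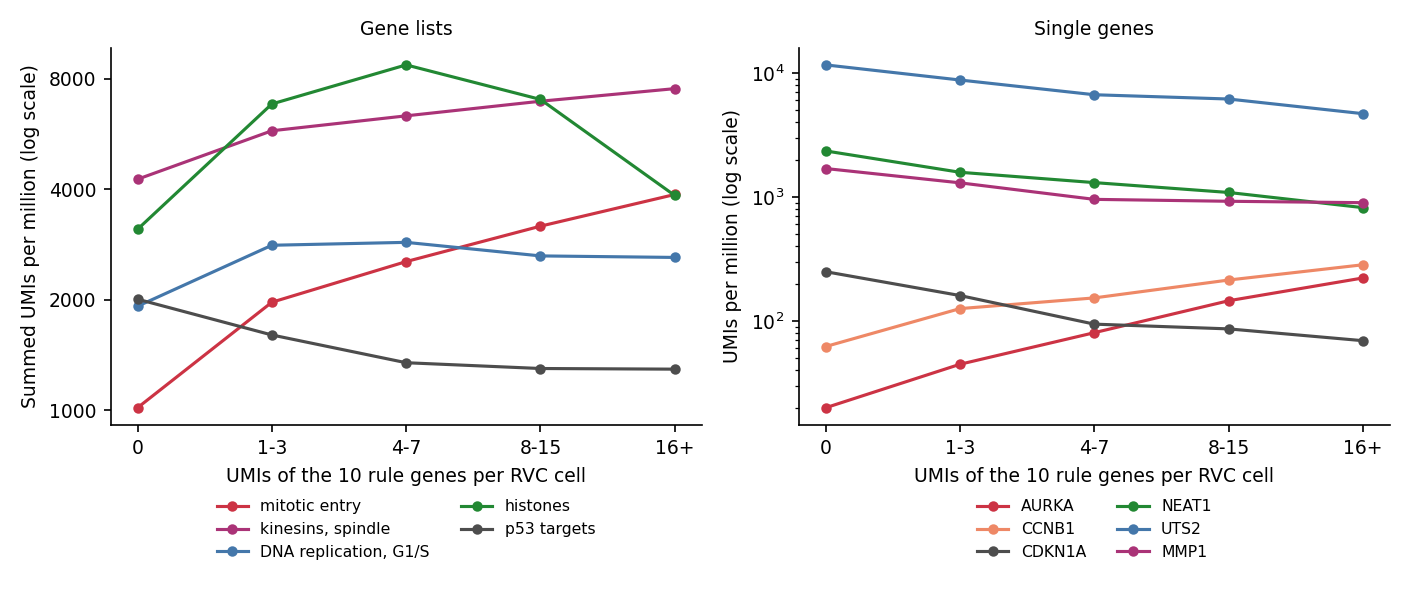
Levels in RVC cells (CPM, log scale) by the UMIs of the 10 rule genes per cell, for summed gene lists (left) and single genes (right). Entry genes climb from 1016 to 3869 CPM, histones peak at 8721 CPM for sums of 4 to 7, and *CDKN1A*, *NEAT1* and *UTS2* are highest at 0.

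The mitotic cells were also divided by single rule genes. These are parts of the sum just used, and cells with a UMI of one lie by construction at higher sums, so the values describe the group and add no separate evidence. The 861 mitotic cells with a UMI of *HMMR*, a spindle protein, had 254 CPM of *CCNB1*, 61.2 CPM of *CDC20* and 5778 CPM of *HIST1H4C*, while the 2772 without it had 172, 40.5 and 7767 CPM. The 490 cells with a UMI of *PLK1* had 239 CPM of *CCNB1* and 5638 CPM of *HIST1H4C*, against 185 and 7545 CPM in the 3143 without. The 409 mitotic cells that lacked *CENPF* had the lowest *CCNB1* (122 CPM), the highest *HIST1H4C* (9034 CPM) and the highest *UTS2* (7698 CPM) of the divisions by any of the 10 genes. A gene of the rule used in this way is also a measure of depth, since cells with *PLK1* had a median of 5837 UMIs and cells without it 5262.

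Transcripts of mitotic entry were not absent from the non-mitotic cells. At 1500 UMIs per cell, with the groups kept as they were, a UMI of any of the 20 counted entry genes was found in 97.0% of mitotic (96.4% to 97.5%), 89.8% of intermediate and 70.1% of non-mitotic cells (67.7% to 72.5%), with means of 4.51, 3.13 and 1.66 UMIs per cell. Since 7 of the 20 were under 10 CPM in non-mitotic cells, the gap between the groups partly follows from the minimum. For single cell division genes the shares were 23.5% and 9.73% for *CCNB1*, 15.5% and 2.36% for *AURKA*, 58.0% and 24.5% for *CKS2*, and 6.83% and 1.81% for *CDC20* in mitotic and non-mitotic cells. For each of these 4 genes cells with and without a UMI were found in both groups. Free RNA also gives such UMIs, and its part was not tested.

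The same rule was applied to the other cultures. In S 9.59% of 5744 counted genes were higher and 2.92% lower, in RV 16.8% and 4.01% of 5811, and in RVT 11% and 9.95% of 6701. At full depth the non-mitotic cells of RVC had the highest CPM of entry transcripts of any non-mitotic group. Their entry genes summed to 1016 CPM in RVC and to 410 in S, 430 in RV and 468 in RVT. Mitotic cells had 2949 CPM in RVC, 1468 in S, 1614 in RV and 4388 in RVT. A sum of 0 is a stricter limit in deeper cells. Non-mitotic cells had a median of 2845 UMIs in RVC, 8052 in S, 10235 in RV and 2864 in RVT. The part of depth and of free RNA in this order was not tested. For *CDK1* the non-mitotic level was 31.2 CPM in RVC and 1.64, 2.36 and 3.23 CPM in S, RV and RVT, and the mitotic level 109, 49.8, 53.9 and 202 CPM. The median log2 ratio of the entry list was 1.66 in RVC, 3.65 in S, 3.20 in RV and 4.4 in RVT, over 20, 16, 15 and 12 counted genes. At 1500 UMIs per cell, with the rule applied again, it was 1.41, 2.76, 2.70 and 4.56, so RVC remained lowest for this list at equal depth. Medians of other lists had other orders. The cytokinesis median was 1.96 in RVC (15 counted genes, 9 of them under 10 CPM in non-mitotic cells) and 0.39 in S (5 counted genes). The thinned median of the anaphase-promoting complex list was 0.31 in RVC and 0.20 in S. Sums over all members did not follow these orders. Cytokinesis genes had 891 and 602 CPM in mitotic and non-mitotic RVC cells, and 712 and 404 CPM in S. The anaphase-promoting complex list had 1744 and 1225 CPM in RVC, and 2057 and 1003 CPM in S. For the histones of RVT the median and the sum differed in sign, with a median of -1.68 over 6 counted genes, of which 5 were lower, and a summed level of 1875 CPM in mitotic and 545 CPM in non-mitotic cells. S and RV were deeper libraries and were counted with another gene annotation than RVC and RVT, and with 1 library each the culture and the library cannot be told apart.

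**Figure D5:**
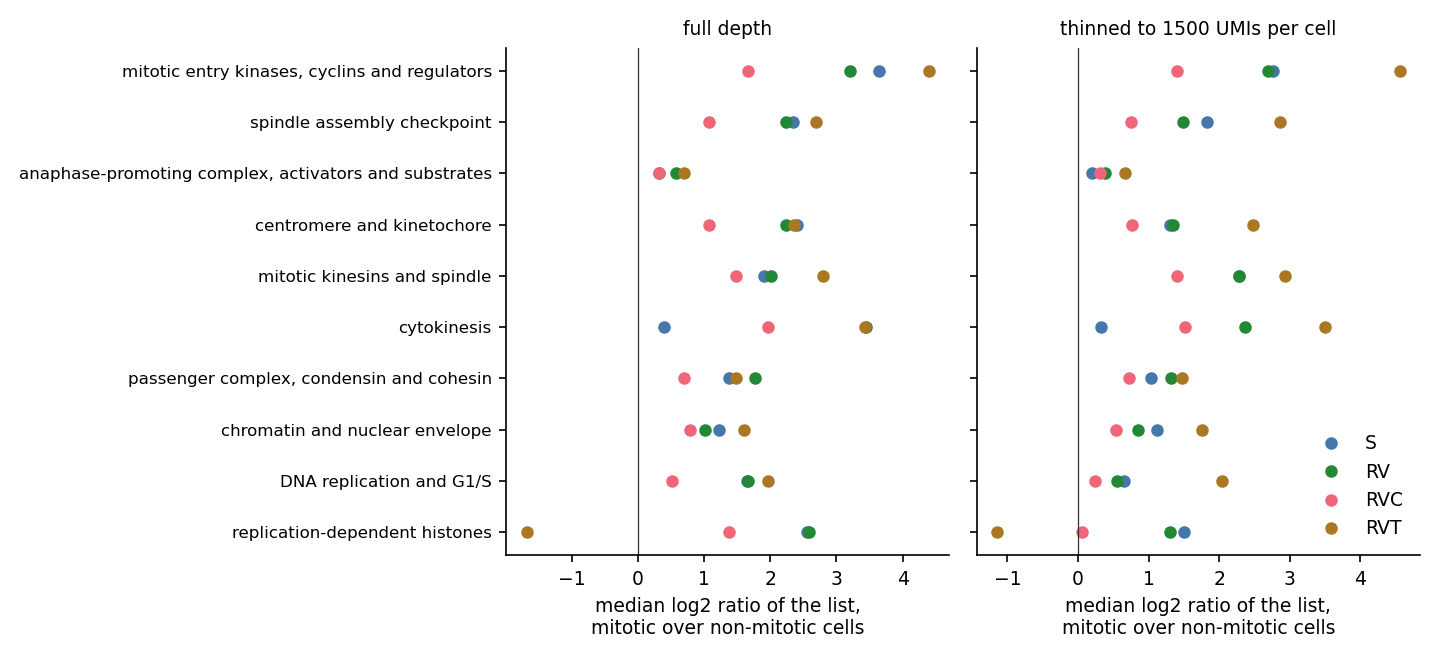
Median log2 ratio of mitotic over non-mitotic cells for 10 lists of cell division in the 4 libraries, at full depth (left) and thinned to 1500 UMIs per cell with the rule applied again (right); each library uses the list members it has at 10 CPM or more. For mitotic entry RVC lies lowest in both panels (1.66 and 1.41).

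Across genes counted in both libraries, the log2 ratios of RVC had a Pearson correlation of 0.67 with those of S (4653 genes), 0.72 with RV (4641 genes) and 0.61 with RVT (5345 genes), where genes are no independent replicates and the rule genes are the same. Of the genes higher in mitotic RVC cells and counted in both, 57.1% were also higher in S, 67.1% in RV and 60.7% in RVT, which is 40%, 28.4% and 24.1% of the higher genes of S, RV and RVT that were also counted in RVC. Of the lower genes 36.4%, 58.2% and 42.4% were also lower there, or 21.3%, 22.4% and 10.4% of the lower genes of those libraries that were also counted in RVC. Over all genes counted in both, 440 of 4653 were higher in S, 760 of 4641 in RV and 673 of 5345 in RVT. Lower were 94, 143 and 347 in the same order. The order of the overlaps is to be read beside these counts. *NEAT1* was lower in the mitotic cells of all 4 libraries, with log2 ratios of -1.02 in RVC, -1.32 in S, -2.39 in RV and -0.86 in RVT, and so was *SAT1* (-0.79, -1.20, -1.43 and -1.17). *CDKN1A* was lower in RVC (-1.505), S (-0.80) and RV (-1.33) and level in RVT (0.04), where 117 CPM in mitotic and 114 CPM in non-mitotic cells were counted. *HSPA1A* was higher in RVC (1.28) and RVT (0.74) and stood at -0.21 in S and -0.40 in RV.

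Markers of other cells were sought in both groups. Of 8 melanocyte lineage markers none reached 10 CPM in RVC, and *MLANA*, *TYR*, *DCT*, *SOX10* and *S100B* had no UMI in either group. The 8 summed to 13.3 CPM in mitotic and 11.1 CPM in non-mitotic cells, nearly all of it *MITF* and *TYRP1*. Of the defining markers of this lineage, which A375 cells derive from, most were thus absent. The 5 immune markers summed to 0.097 CPM in mitotic cells and had no UMI in non-mitotic cells, which allows up to 0.59 CPM (3 UMIs), and the 3 endothelial markers summed to 1.36 and 1.76 CPM. Of 6 fibroblast markers 3 were counted and 2 were lower in mitotic cells, *LUM* with 17.4 and 37.9 CPM (2.18-fold lower) and *DCN* with 13.3 and 20.9 CPM (1.58-fold lower). *LUM* was 1.49-fold lower in thinned cells. *COL3A1* was at 119 and 133 CPM (0.89-fold, but 1.58-fold in thinned cells) and *COL1A2* at 0.19 CPM and no UMI. The 4 keratinocyte markers summed to 81.6 and 84.0 CPM, nearly all of it *KRT10*, with *KRT5* and *KRT14* at 0. The part of such markers in the results was not tested.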

How the data were processed

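Droplet RNA-seq of 4 A375 cultures, 1 library each, was analysed. The count values are whole-number UMI counts per gene and barcode, deposited by the authors without normalization. Per the labels they come from Cell Ranger and GRCh38, and the Cell Ranger version and the gene annotation are not given in the sources used here. Genes were named with GENCODE 29. The members and gene lists were chosen with earlier results of these data known.

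RVC barcodes with at least 500 genes and at most 20% mitochondrial UMIs were divided by the rule. UMIs were summed per gene and group and divided by the group's total (20526405 UMIs for mitotic and 5121623 for non-mitotic cells), giving CPM. Ratios have exact conditional Poisson intervals and shares exact Clopper-Pearson intervals, both at 95%. Intervals cover counting error only. A gene was called at 1.5-fold among genes of at least 10 CPM, and no test was made, since cells of 1 library are no replicates. Named were the 12 largest and the 12 smallest ratios at 50 CPM or more , the leading members of each list and members whose role the text needed. With 3 UMIs the lowest level that can be set apart from 0 is 0.15 CPM in mitotic and 0.59 CPM in non-mitotic cells.

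Doublets were kept in the main values and removed in an alternative by scrublet score (scanpy 1.11.5) at 0.8% per 1000 barcodes. Python 3.11.15, numpy 2.4.6, scipy 1.17.1, pandas 2.3.3, matplotlib 3.10.9, R 4.3.3 and edgeR 4.0.16 (TMM factors only) were used. The calculation of ratios was tested on simulated counts. Other alternatives were cell filters, depth, threshold, scaling, weights and filters on low genes, and, chosen after seeing the data, barcodes of 1 library only.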

Additional observations from a re-analysis of the deposited data

Results flagged for a closer look

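*GDF15* was lower in mitotic RVC cells, with a log2 ratio of -0.94, and higher in mitotic S cells, with 1.55. *HIST1H2BG* was higher in mitotic RVC cells (1.49) and lower in mitotic RVT cells (-1.52). *TUBA1A* was lower in mitotic RVC cells (-0.66) and higher in mitotic RVT cells (0.61). Each of these 3 genes went past 1.5-fold in opposite directions in the 2 cultures. They are a selection. Among genes counted in both libraries, 2 that were lower in RVC were higher in RVT, and 4 that were higher in RVC were lower in RVT. Against S and against RV 1 lower gene was higher and 0 higher genes were lower. *CCL2*, lower in mitotic RVC cells, had 57.4 CPM in mitotic and 3.19 CPM in non-mitotic RVT cells. The differences were not tested, since each culture is 1 library, and *HIST1H2BG* and *TUBA1A* share sequence with relatives.

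Of the 959 RVC barcodes left out by the filter, 104 (10.8%, 8.95% to 13.0%) had a rule sum of 4 or more, although their median depth was 729 UMIs. They were used in no comparison.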

How the results depend on the processing

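No paired analysis was possible because each culture is 1 library. The mitotic share of 43.7% was 55.3% with at least 1000 genes per barcode, 42.1% without scrublet doublets, 45.4% in cells of 3000 to 6000 UMIs, 9.87% in thinned cells, and 18.1% or 66.4% with a threshold of 8 or 2. Scrublet's scores removed 10.1% of mitotic and 1.87% of non-mitotic cells, and its own threshold marked 1 barcode, so that it had not worked as a caller. The 448 higher genes became 734 in cells of 3000 to 6000 UMIs, 84 at 50 CPM or more, 1435 at 1 CPM or more and 150 at 2-fold. The 118 lower genes became 226 in thinned cells, 28 at 50 CPM or more, 783 at 1 CPM or more and 13 at 2-fold. Under the remaining alternatives, TMM, 2 other library sizes, equal weight per cell, a pseudocount of 1 CPM, a limit of 10% mitochondrial UMIs and barcodes of 1 library only among them, both counts stayed within 1.5 times. All 24 named genes kept their direction under 13 alternatives each, and 18 stayed past 1.5-fold in every one. The other 6 are *UTS2*, *SGK1*, *S100A4*, *FN1* and *ARID5B*, lost in thinned cells, and *MMP1*, lost there and in cells of 3000 to 6000 UMIs. Thinned cells were divided by the rule again. Of the 2913 with a sum of 0, 1439 were non-mitotic at full depth, 419 were mitotic and the rest were intermediate. Folds in thinned cells thus differ from the main ones in the make-up of the groups as well as in depth. With the groups kept as they were, thinned cells had *UTS2* at 6874 CPM in mitotic and 12306 CPM in non-mitotic cells. The causes were not tested. A sum of 0 is easier to reach in a shallow cell, and the part of depth in the contrast was not tested.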
